A study of Caenorhabditis elegans with 12 samples.

Results

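The cytoplasmic ribosomal protein genes of *C. elegans* were taken as all probe sets whose single gene symbol in the probe annotation starts with rpl- (large subunit) or rps- (small subunit) followed by a digit. Among 22548 probe sets that are not controls, 111 met this rule. They stand for 75 genes, with 66 probe sets for 45 genes of the large subunit and 45 probe sets for 30 genes of the small subunit. Several probe sets were present for 32 of the genes. The RefSeq gene table lists 78 genes with such symbols. Of the other 3, *rpl-37.1* and *rpl-37.2* share a probe set and are described with the shared probe sets, and *rpl-18A* is not analysed here.

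The small subunit of the ribosome reads the mRNA and the large subunit joins the amino acids. Both are assembled in the nucleolus from ribosomal RNA and a single copy of nearly every ribosomal protein, so the genes of the family are usually expressed together and strongly. The early *C. elegans* embryo starts with ribosomes and with ribosomal protein mRNAs supplied by the mother.

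The samples were embryos of the heat-shock *hlh-1* strain KM267, which carries *hlh-1*, the gene for the worm's MyoD-related muscle factor, under a heat-inducible promoter that acts in most cells. Each of the 12 arrays held RNA of a pool of about 80 embryos, picked at the 1- and 2-cell stage, and every one of the 4 times had 3 separate samples, A to C. The 0 h embryos were taken before any heat pulse, whereas the 2, 4 and 6 h embryos had spent 60 min at room temperature and 30 min at 34 °C and were then kept at room temperature for the hours named. Pulsed embryos lacking the transgene were not analysed here. The effects of HLH-1, of the heat pulse and of age therefore cannot be told apart in a comparison with 0 h, nor those of HLH-1, age and recovery from the pulse in the comparison of 6 h with 2 h.

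The labels were checked on *hlh-1* and on cell type markers. The MAS5 signals of *hlh-1*, on a linear scale, were 3684, 4023 and 2802 at 2 h, against 198.9, 348.0 and 195.6 at 0 h. The summed signal of 11 body wall muscle markers was 654.7 to 2909 at 0 h, 1136 to 1828 at 2 h, 69280 to 99500 at 4 h and 288000 to 368500 at 6 h, and 11 of the 11 were raised at 6 h against 0 h. The summed signal of 12 early embryo and maternal markers was 38670 to 48290 at 0 h and 31530 to 36870 at 2 h. It was 5082 to 7737 at 4 h, and 7357, 1548 and 1021 in 6 h replicates A, B and C. Why these markers summed higher in 6 h replicate A was not tested. Against 0 h, 8 of them were lowered and 0 raised at 6 h, but 3 were lowered and 3 raised at 2 h. The 2 h sum thus hides opposite changes. The mean signal of *oma-1* was 1407 at 0 h and 15640 at 2 h (raised). That of *pos-1* was 18260 and 2677, a change of -2.79 on the log2 scale (standard error 1.64). It was not called, although its 0 h and 2 h arrays did not overlap. Its 6 h signals were 2842, 186.2 and 10.7, and all 4 times share 1 estimate of the spread. Of 5 germline markers 1 was lowered and 0 were raised at 6 h against 0 h, of 6 intestine markers 3 were lowered and 1 was raised, of 5 epidermis markers 1 was lowered and 2 were raised, of 6 neuron markers 1 was raised, and of 5 pharynx markers 2 were raised. Over all tested probe sets, 21.7% were raised and 15.6% lowered at 6 h against 0 h, and these short lists are not read as groups. The lowered intestine markers were *end-1*, *end-3* and *elt-7*, with mean signals of 29310, 728.4 and 6645 at 0 h. The lowered epidermis marker was *elt-1*, with 906.3 at 0 h. The stage of the 0 h embryos when their RNA was taken was not tested. At 2 h, *glh-4* of the germline list was raised 20.7-fold, while 2 germline markers were lowered. Muscle and early embryo markers changed over the same hours as the ribosomal protein signals. The part of the mix of cell types and stages in those signals was not tested. In these bulk samples, more RNA per cell and more cells with much of it cannot be told apart.

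Ribosomal protein signals were among the brightest on every array and took a growing share of all signal after induction. The 111 probe sets held 11.3%, 11.9% and 14% of the summed signal of all probe sets at 0 h, 14.2%, 14.7% and 14.4% at 2 h, 20.8%, 21.7% and 16.6% at 4 h, and 25.3%, 27.2% and 23.6% at 6 h. The ranges at 6 h and at 4 h lay wholly above those at 2 h and 0 h, and the 2 h range lay just above the 0 h range. Of the 100 brightest probe sets on an array, 21, 21 and 27 belonged to the family at 0 h, 39, 43 and 45 at 2 h, 53, 50 and 43 at 4 h, and 65, 63 and 62 at 6 h. The family thus held a growing part of the brightest signals, including at 2 h, where few of its members were called changed. *rpl-21*, a gene of the large subunit, gave the brightest signal of the whole array in 7 of the 12 samples, and its signal of 205213 in 6 h replicate B was the highest of the series.

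**Figure D1:**
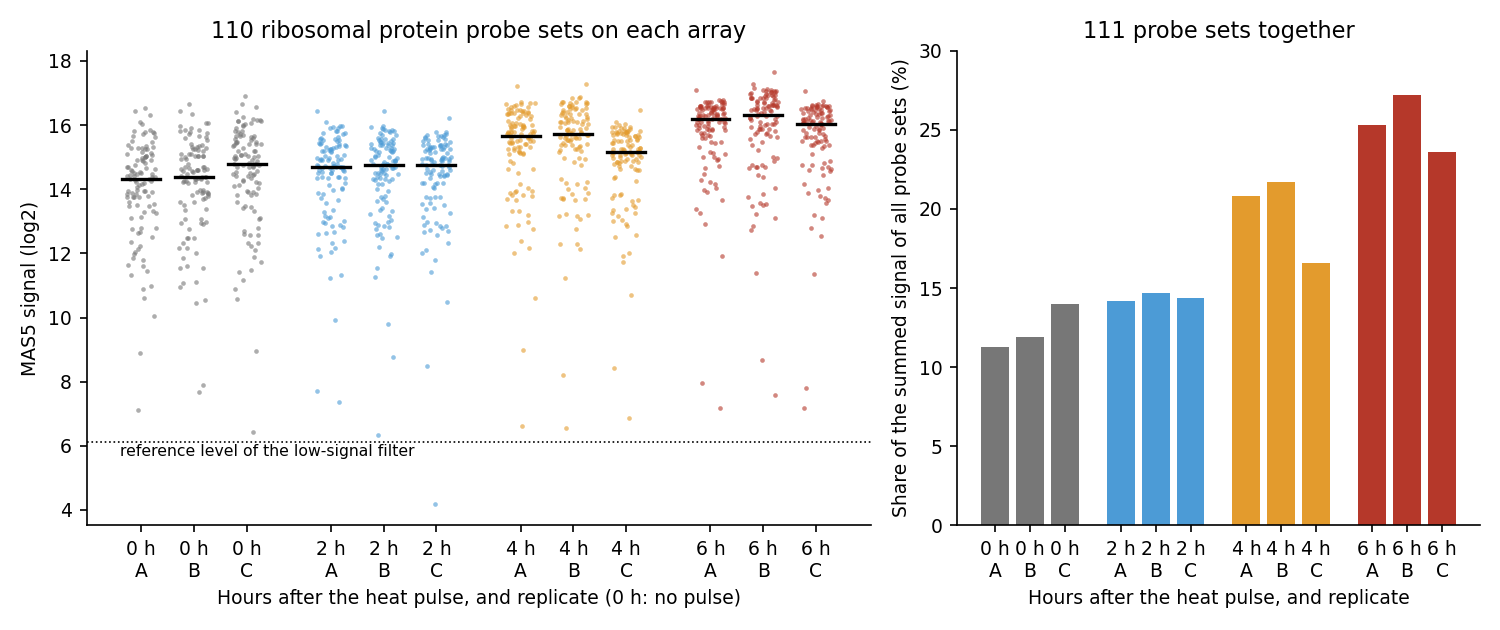
MAS5 signal of the 110 tested ribosomal protein probe sets on each of the 12 arrays (left, log2 scale, 1 point per probe set, black bars are medians) and the share of the summed signal of all probe sets that the 111 probe sets held (right, in percent), by hours after the heat pulse and replicate. The share runs from 11.3% in 0 h replicate A to 27.2% in 6 h replicate B, with 4 h replicate C at 16.6%, below the other 4 h arrays.

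This brightness matters for the scale of the values. On every array the mean signal without the lowest and the highest 2% of probe sets was 500.2 to 500.3, the level that the deposited signals share, and 78 to 104 of the 111 probe sets lay within the brightest 2% of their array. Most of the family thus lies outside that mean. Where the arrays were scaled to a common median instead, the median change of all tested probe sets at 6 h against 0 h was -0.05 on the log2 scale, against 0.31 as deposited.

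Individual arrays deviated across the whole family. In 0 h replicate C, 109 of 110 tested members lay above the mean of the other 0 h arrays, by a median of 0.41 on the log2 scale. In 4 h replicate C, 107 lay below the other 4 h arrays (median -0.58), and in 6 h replicate C, 106 lay below the other 6 h arrays (median -0.27). Over all tested probe sets the same medians were 0.0, 0.01 and -0.08, so that these deviations were not seen in the typical probe set. After quantile normalization the members' medians were smaller, at 0.26, -0.11 and -0.06. Whether other bright probe sets deviated likewise was not tested. Counts are therefore given below with and without these arrays where they differ.

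Log2 signals of the 110 members that passed the filter on low signals were compared in a limma fit over 18264 tested probe sets. A probe set is called raised or lowered at a Benjamini-Hochberg adjusted p under 0.05, over all tested probe sets, with a fold of at least 1.7. The filter asked for a signal above 69.7, the median 40th percentile of the arrays, in at least 3 arrays. The median SD of log2 signal within a time point was 0.259 over the tested members (0.142 to 0.887), against 0.808 over all tested probe sets. It was 0.238 over the 361 other probe sets at or above the 10th percentile of the members' brightness. That percentile is a floor and no match of their levels. The number of arrays limits the precision. Signals of different probe sets depend on their probes and are not compared here as transcript levels.

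At 2 h few members were called on the deposited scale. Of the 110 tested members, 10 were raised (9.09%), against 15.5% of all tested probe sets, and 2 were lowered (1.82%), against 9.55% of all. The median change was 0.20 on the log2 scale, against 0.11 over all tested probe sets. All 2 h arrays lay above all 0 h arrays for 36 members and below them for 18, where 23.8% and 18.2% of all tested probe sets did so. The count of raised members was 5 without 0 h replicate A, 6 without 2 h replicate C and 16 without 0 h replicate C where 1 array was left out. After quantile normalization 34 members were raised, against 13.3% of all tested probe sets, and the median change was 0.60, against 0.05 over all. The 2 h result therefore depends on the scaling.

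By 4 h, 68 members were raised, or 61.8%, against 17.1% of all tested probe sets. Only *rpl-11.1* was lowered, against 11.9% of all. The median change was 0.93 on the log2 scale, against 0.16 over all tested probe sets, and 1.25 without 0 h replicate C and 4 h replicate C. The count of raised members was 57 without 0 h replicate A, 81 without 0 h replicate C, 80 without 4 h replicate C and 90 without both C arrays.

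At 6 h against 0 h, 92 members were raised, or 83.6%, against 21.7% of all tested probe sets, and *rpl-11.1* was again the only member lowered, against 15.6% of all. The median change was 1.51 on the log2 scale, which is 2.85-fold, against 0.31 over all tested probe sets. All 3 arrays at 6 h lay above all 3 arrays at 0 h for 105 members, against 28.2% of all tested probe sets, and below them for 1 member, against 20.2%. With arrays scaled to a common median, 81 members were raised with a median change of 1.15, while over all tested probe sets 16.8% were raised and 19.4% lowered. The count of raised members lay between 90 and 98 with any array left out.

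The comparison of 6 h with 2 h, both of which had the heat pulse, gave the most uniform change. Here 106 of 110 members were raised, against 14.3% of all tested probe sets, and 0 were lowered, against 14.5% of all; in limma 0 members also had a change below 0 at an unadjusted p under 0.05. The median change was 1.34 on the log2 scale, or 2.53-fold, against 0.16 over all tested probe sets. The 4 members not called were *rpl-11.1*, *rpl-41.1*, *rpl-42* and the dim probe set 175191_at of *rpl-12*. After median scaling 81 members were raised with a median change of 0.96, beside 10.4% raised and 19.8% lowered over all. Quantile normalization, which gives every array the same brightest values, left 35 members raised with a median change of 0.40, beside 12.5% raised, 15.5% lowered and a median of -0.06 over all tested probe sets.

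**Figure D2:**
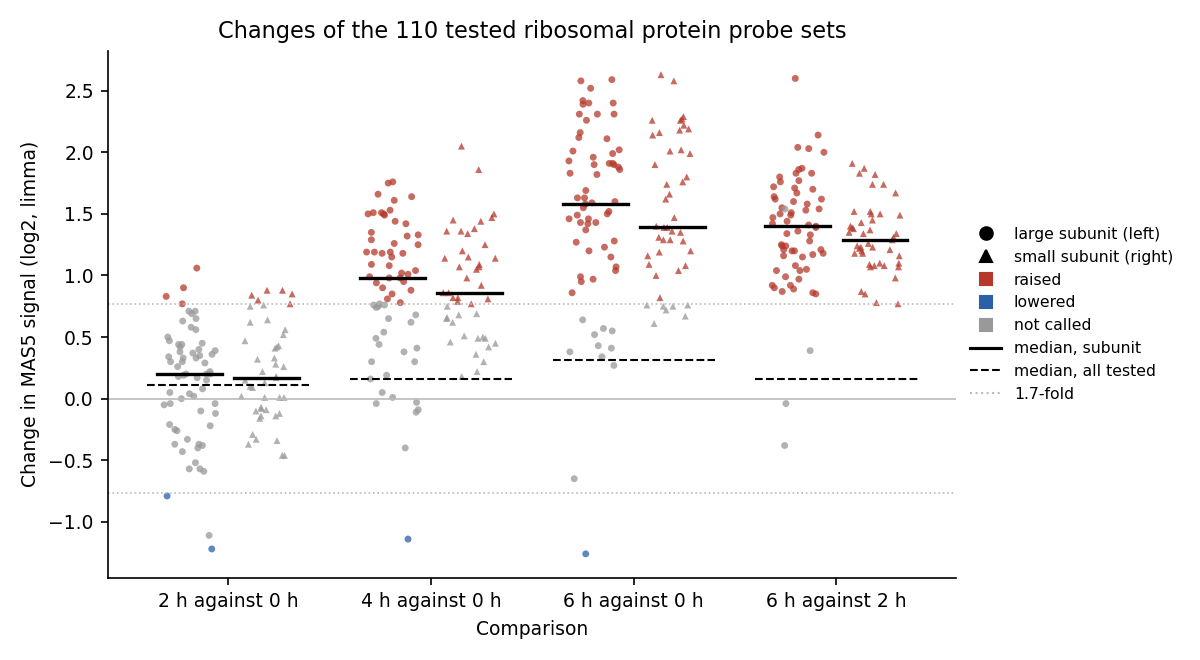
Log2 change in MAS5 signal from limma for the 110 tested ribosomal protein probe sets in 4 comparisons, with large-subunit members as circles on the left and small-subunit members as triangles on the right of each. Solid bars are subunit medians, dashed bars medians over all tested probe sets, dotted lines 1.7-fold; 92 members are raised at 6 h against 0 h and 106 at 6 h against 2 h.

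Both subunits had raised members in like shares. At 6 h against 0 h, 54 of 65 tested large-subunit members and 38 of 45 small-subunit members were raised, with medians of 1.58 and 1.39 on the log2 scale. At 6 h against 2 h, 61 of 65 large-subunit and 45 of 45 small-subunit members were raised, with medians of 1.40 and 1.29. Counted by gene, 38 of 45 large-subunit genes and 27 of 30 small-subunit genes had a raised probe set at 6 h against 0 h, and 59 of the 75 genes had every tested probe set raised. A difference between the subunits was not tested.

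The 361 other probe sets above the members' lower brightness bound changed in both directions. Their median change on the log2 scale was -0.15 at 2 h and 0.24 at 4 h against 0 h. At 2 h, 21.6% of them were raised and 23.5% lowered, and at 4 h 29.4% and 14.1%. Among them, 27.4% were raised and 34.9% lowered at 6 h against 0 h, with a median change of -0.11 on the log2 scale, and the median was 0.04 at 6 h against 2 h.

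On the deposited scale, the time course of single members followed a few forms. Of the 110 tested members, 58 were raised at 4 and 6 h only, 23 at 6 h only and 10 at all 3 times, 17 were not called at any time, and 1 each was lowered at all times or lowered at 2 h and raised at 6 h. The mean signal was highest at 6 h for 107 members, at 4 h for 1 and at 0 h for 2. It rose at every step for 69 members, whereas for 39 it was lower at 2 h than at 0 h and higher at 6 h than at 0 h. Over all tested probe sets, 15.5%, 17.1% and 21.7% were raised at 2, 4 and 6 h. The forms themselves were not counted over all of them. After quantile normalization 34 members were raised at 2 h, so the forms depend on the scaling.

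The members raised early were of both subunits. The largest rise at 2 h was at probe set 191915_s_at of *rpl-15*, with signals of 16975, 20268 and 25231 at 2 h, against 9777, 8656 and 11217 at 0 h. The groups did not overlap, and the change was 1.06 on the log2 scale (standard error 0.18, limma adjusted p = 0.000109). The brighter *rpl-15* probe set, 173375_s_at, gave 0.35 at 2 h with overlapping groups (limma adjusted p = 0.221) and was not called. *rpl-23A.1*, which encodes a protein at the exit of the peptide tunnel, was 1.86-fold higher at 2 h, with 23095, 25812 and 22838 at 2 h, against 11791, 12354 and 14526 at 0 h. The others among the 5 largest rises were the small-subunit genes *rps-8* (1.84-fold), *rps-18* (1.85-fold at 192736_at, against a change of -0.29 on the log2 scale, not called, at 171959_x_at) and *rps-6*, whose product is a target of S6 kinase in many animals (1.81-fold). *rps-27A*, whose human counterpart is made as a fusion with ubiquitin, was 1.74-fold higher, just past the 1.7-fold limit. The 2 h calls near that limit moved with single arrays: *rps-19* (1.71-fold) kept its call in 8 of 12 fits with an array left out, and *rpl-3*, of the peptidyl transferase centre, in 9 of 12.

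The largest rises at 4 h were at *rps-19*, *rps-11*, *rpl-10a*, *rpl-9* and *rpl-14*. The product of *rps-19* is needed for maturation of the small subunit in yeast and human cells. Its probe set 192763_at had signals of 54395, 67078 and 36298 at 4 h, against 10168, 11783 and 15419 at 0 h, a change of 2.05 on the log2 scale (standard error 0.21, limma adjusted p = 1.15e-07). All 4 h arrays lay above all 0 h arrays, although 4 h replicate C was the lowest of the 3. The brighter *rps-19* probe set, 173251_s_at, changed by 1.38 at 4 h, and that of *rps-11* by 1.15, against 1.86 at its dimmer set. *rpl-9* rose 3.35-fold at 187970_s_at, *rpl-10a*, which encodes a protein of the stalk at the tRNA exit, 3.39-fold at 177262_s_at, and *rpl-14* 3.17-fold. The brightest probe sets of *rpl-9* and *rpl-10a* rose 2.86-fold and 2.67-fold.

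At 6 h the largest rise of a probe set was at *rps-11*, a gene of the small subunit. Its brighter probe set, 171954_x_at, changed by only 1.66 on the log2 scale (3.16-fold) at 6 h against 0 h. Probe set 192434_at read 3746, 3685 and 5161 at 0 h, 6483, 7522 and 7102 at 2 h, 15705, 18503 and 11708 at 4 h, and 31589, 21543 and 24709 at 6 h. Its groups did not overlap at any step, and the change at 6 h against 0 h was 2.63 on the log2 scale (6.18-fold, standard error 0.20, limma adjusted p = 1.04e-09). *rps-7*, also of the small subunit, had signals of 10622, 9559 and 9383 at 6 h, against 1570, 1491 and 1898 at 0 h, a change of 5.99-fold. *rpl-39* encodes a very small protein in the wall of the peptide tunnel, and its signals were 36606, 31894 and 25726 at 6 h, against 4546, 5092 and 6112 at 0 h, or 5.97-fold higher. *rpl-11.2* (6.04-fold at 192343_s_at) and *rpl-10a* (5.73-fold at 177262_s_at) complete the 5 largest rises. Their brightest probe sets rose 2.68-fold and 4.34-fold.

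*rpl-30* had the largest change between the heat-pulsed samples. It encodes a protein that in yeast also binds its own transcript. Its signals were 19430, 20386 and 26422 at 0 h, 16642, 13774 and 13926 at 2 h, 43952, 42471 and 28601 at 4 h, and 93881, 100422 and 74705 at 6 h. All 2 h values lay below all 0 h values, a change of -0.57 that did not reach 1.7-fold (adjusted p = 0.0292 in limma), and the 6 h values lay far above both. The change at 6 h against 2 h was 2.60 on the log2 scale, or 6.04-fold (standard error 0.19, limma adjusted p = 7.55e-10). *rpl-39* (4.41-fold), *rpl-9* (4.12-fold), *rpl-38* (4.07-fold) and *rpl-34* (4.01-fold) followed it. The brighter probe sets of *rpl-9* and *rpl-38* gave 3.54-fold and 2.83-fold.

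Of the genes that the annotation gives in numbered copies, *rpl-11.1* and *rpl-11.2* moved in opposite directions. Both encode the large-subunit protein L11, which enters the ribosome together with L5 and the 5S RNA. *rpl-11.1* lies on chromosome V and *rpl-11.2* on chromosome X, and in *C. elegans* the autosomal copy of this pair is known to matter for the germ line. *rpl-11.1* read 21467, 20823 and 31196 at 0 h, 8153, 11018 and 12243 at 2 h, 10246, 13644 and 9228 at 4 h, and 13044, 8818 and 8854 at 6 h. Every array after the pulse lay below every 0 h array, and the 3 later times overlapped each other. The change was -1.22 on the log2 scale at 2 h, -1.14 at 4 h and -1.26 at 6 h (standard error 0.22 each), with limma adjusted p = 0.0002, 0.0003 and 7.79e-05. It kept these calls with each array left out in turn.

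*rpl-11.2* was measured at a pair of probe sets. At 192343_s_at it read 2012, 2183 and 2881 at 0 h, 4492, 3856 and 4089 at 2 h, 6939, 6931 and 5798 at 4 h, and 20096, 11420 and 12138 at 6 h, with no overlap between neighbouring times. The change at 6 h against 0 h was 2.59 on the log2 scale (standard error 0.21, limma adjusted p = 2.64e-09). At 173330_s_at the signals were 94496, 132493 and 97465 at 6 h, against 35301, 37649 and 47526 at 0 h, a change of 1.42. Both probe sets, the single one of *rpl-11.1* and that of *rpl-23A.1* carry a suffix that marks probes shared by several transcripts, so signal from other transcripts cannot be told apart at either *rpl-11* copy.

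The copies of *rpl-23A* differed at the first step. *rpl-23A.1* lies on chromosome X and *rpl-23A.2* on chromosome I. *rpl-23A.2* read 39517, 33965 and 43782 at 0 h, 21241, 24489 and 21917 at 2 h, 36520, 41591 and 32398 at 4 h, and 71093, 90513 and 68537 at 6 h. All 2 h arrays lay below all 0 h arrays, the 4 h arrays overlapped the 0 h arrays, and all 6 h arrays lay above them. The change was -0.79 at 2 h (standard error 0.17, limma adjusted p = 0.000933), -0.09 at 4 h and 0.97 at 6 h (limma adjusted p = 6.19e-05), on the log2 scale. Its 2 h call was held in 10 of 12 fits with an array left out, and its 6 h change was 0.61 with median scaling, below 1.7-fold. *rpl-23A.1* was raised at each time, by 0.90, 1.61 and 2.40 on the log2 scale. The X-linked copies *rpl-11.2* and *rpl-23A.1* are the only members on that chromosome.

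**Figure D3:**
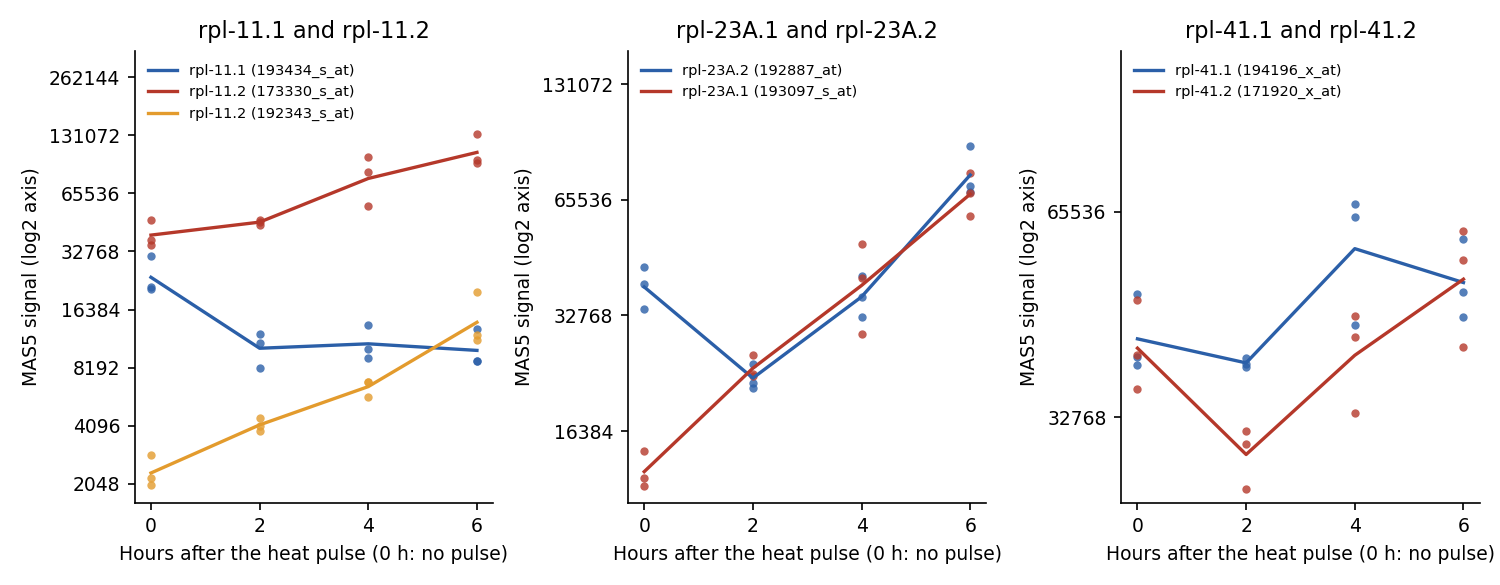
MAS5 signal (log2 axis) of the numbered copies of *rpl-11*, *rpl-23A* and *rpl-41* by hours after the heat pulse, 1 point per array with lines through the means of log2 signal. *rpl-11.1* is lower at 2, 4 and 6 h than at 0 h, whereas *rpl-11.2* and *rpl-23A.1* are higher at 6 h.

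*rpl-41.1* and *rpl-41.2* encode one of the shortest proteins of the ribosome. *rpl-41.1* read 49986, 59849 and 46011 at 6 h, against 40152, 39107 and 49597 at 0 h, and the groups overlapped (0.27 on the log2 scale, limma adjusted p = 0.24). It was the single tested member with its highest mean at 4 h, 58810 ± 12200 (SD, n = 3). *rpl-41.2* read 36009, 40487 and 48615 at 0 h, 25769, 29962 and 31305 at 2 h, and 61387, 55766 and 41615 at 6 h. It was 1.81-fold higher at 6 h than at 2 h, a difference that was -0.08 on the log2 scale after quantile normalization, and its 6 h and 0 h values overlapped. Probes of both sets can match several near-identical transcripts, so the values of these copies are uncertain.

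The 3 brightest tested members, 2 probe sets of *rpl-12* and 1 of *rpl-21*, were not called against 0 h at any time. For *rpl-12*, which encodes a protein at the base of the ribosomal stalk, probe set 175533_s_at read 89233, 89363 and 103476 at 0 h, 69398, 63909 and 56599 at 2 h, 107448, 119980 and 70478 at 4 h, and 111070, 160430 and 109525 at 6 h. The 2 h arrays lay below and the 6 h arrays above the 0 h arrays. The change at 6 h against 0 h was 0.41 on the log2 scale (limma adjusted p = 0.0989), and at 6 h against 2 h it was 0.99 (limma adjusted p = 0.000368). Its other bright probe set, 173407_s_at, gave 0.38 and 0.97, and its 6 h against 2 h value was -0.00 after quantile normalization. The bright probe set of *rpl-21*, 173249_s_at, read 138606, 205213 and 137373 at 6 h, against 93903, 102898 and 124138 at 0 h. The groups did not overlap, and the change of 0.57 (limma adjusted p = 0.0336) stayed under 1.7-fold. Of the 17 members not called at 6 h against 0 h, 10 had an adjusted p under 0.05 with a fold under 1.7.

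*rpl-10L* encodes the L10 protein, which in yeast joins the large subunit late in its maturation. Its 192827_at probe set read 15663, 15048 and 16808 at 0 h, 10557, 12404 and 13790 at 2 h, 14519, 16789 and 12888 at 4 h, and 33182, 30086 and 28839 at 6 h. It was raised at 6 h alone, by 0.95 on the log2 scale (standard error 0.17, limma adjusted p = 7.46e-05), and by 0.59 with median scaling, below 1.7-fold. The brighter 192828_s_at gave 0.86 at 6 h against 0 h, and 0.72 without 6 h replicate B, also below 1.7-fold. *rpl-7A*, of the large subunit, followed a like course, with changes of -0.25, 0.19 and 1.43 at 2, 4 and 6 h.

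Of other genes whose symbol has a letter after the number, several had every probe set raised at 6 h against 0 h, while *rps-15A* differed between its probe sets. *rpl-13A*, *rpl-35A*, *rpl-36A* and *rpl-37A* of the large subunit changed by 1.55 to 2.42 on the log2 scale, *rpl-27A* by 1.27 and *rps-3A* of the small subunit by 1.29. After quantile normalization *rpl-27A* and *rps-3A* stayed under 1.7-fold, at 0.66 and 0.64.

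Where a gene had several probe sets, the dimmer of them usually had the higher log2 change. Among 31 genes with at least 2 tested probe sets, the signed change of the dimmest probe set was above that of the brightest in 26 at 6 h against 0 h. The medians were 1.90 for the dimmest and 1.37 for the brightest probe sets on the log2 scale, with a median difference of 0.47. At 2 h against 0 h the signed change was also higher at the dimmest in 26 of the 31 genes, with medians of 0.36 and 0.10. In some of these, such as *rpl-12* and *rpl-24*, the brightest probe set was the one further from 0, with a negative change. The same held over members: the 36 dimmest tested members had a median change of 1.96 and the 36 brightest 1.12 at 6 h against 0 h, with 33 and 23 raised. Probe sets of a gene share its transcripts, and the part of the array's upper signal range in this difference was not tested.

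**Figure D4:**
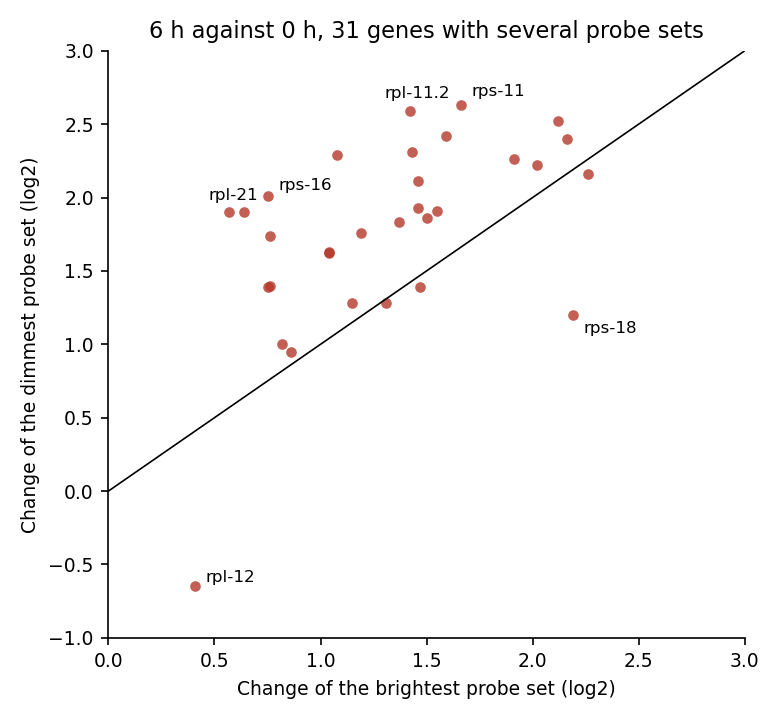
Log2 change at 6 h against 0 h of the brightest (x axis) and dimmest (y axis) tested probe set of each of 31 ribosomal protein genes, with a line where both are equal. In 26 genes the point lies above the line, and *rpl-12* and *rps-18* lie clearly below it.

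In 6 genes the calls of the probe sets differed at 6 h against 0 h, and in each it was the brightest that was not called. They were *rpl-21*, *rpl-24*, *rps-10*, *rps-15A*, *rps-16* and *rps-23*. *rpl-24* rose at 191367_at, with 44489, 26554 and 27454 at 6 h, against 7161, 7962 and 10855 at 0 h, a change of 1.90 on the log2 scale. At 173243_s_at its signals were 91535, 145557 and 101311 at 6 h, against 66443, 68210 and 78009 at 0 h, a change of 0.64 (limma adjusted p = 0.017) under the 1.7-fold limit. *rps-16* showed 2.01 at its dim and 0.75 at its bright probe set. *rps-23*, which encodes a protein of the decoding centre, showed 1.74 and 0.76, *rps-15A* 1.40 and 0.76, and *rpl-21* 1.90 and 0.57. *rps-10* showed 1.39 and 1.09 at its called probe sets and 0.75 at its brightest. The bright sets of *rps-10*, *rps-15A*, *rps-16* and *rps-23* were raised where 0 h replicate C or 6 h replicate C was left out, and that of *rpl-24* where 6 h replicate A was.

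The dimmest members gave no measure of their genes' change. *rpl-8* at 178408_at was the only member that failed the filter on low signals, with 3.6 to 64.4 over the 12 arrays, while the gene's other probe set, 190162_at, read 87152, 79878 and 65511 at 6 h, against 25828, 24993 and 32071 at 0 h. *rpl-12* at 175191_at read 248.4, 405.7 and 146.0 at 6 h, against 475.0, 238.4 and 497.4 at 0 h, with overlap (limma adjusted p = 0.246). *rpl-42* was measured only at 188175_at, with 143.7, 190.7 and 221.7 at 6 h, against 138.2, 205.5 and 86.9 at 0 h (limma adjusted p = 0.684). In these 3 cases the groups overlapped.

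The 3 probe sets that stand for a ribosomal protein gene and another gene were also raised. The set of *rpl-37.1* and *rpl-37.2* read 85542, 100542 and 68296 at 6 h, against 24965, 27785 and 37109 at 0 h, a change of 1.50 on the log2 scale (limma adjusted p = 2.83e-06). The sets shared by *rpl-8* and B0250.3 and by *rpl-7A* and Y73B3A.18 changed by 1.45 and 1.10. Ribosomal proteins named outside the rule rose as well. The acidic stalk genes *rplp-0*, *rplp-1*, *rplp-2.1* and *rplp-2.2*, looked up after the values of the family were seen, had 5 probe sets, all raised at 6 h against 0 h by 0.89 to 2.53. *rplp-2.2* was lowered at 2 h (-0.87, limma adjusted p = 0.0494). *ubq-2*, which encodes ubiquitin joined to the L40 protein, and *rack-1*, a scaffold on the small subunit, were raised by 1.84 and 1.51 at 6 h.

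Other genes of translation were read for comparison. Mitochondrial ribosomal proteins, built into the separate ribosomes of mitochondria, were mostly raised at 2 h already: of 58 tested genes, 41 were raised at 2 h, 46 at 4 h and 44 at 6 h against 0 h, with 1 lowered each time, and their median changes were 1.13, 1.68 and 1.58 on the log2 scale. Read likewise at the brightest probe set of each gene, 7, 41 and 59 of 75 cytoplasmic ribosomal protein genes were raised, with medians of 0.15, 0.88 and 1.43. At 6 h against 2 h, 12 of the 58 mitochondrial genes and 72 of the 75 cytoplasmic genes were raised, against 14.3% of all tested probe sets. Against 0 h, 15.5%, 17.1% and 21.7% of all tested probe sets were raised at 2, 4 and 6 h, and 9.55%, 11.9% and 15.6% lowered. These counts are on the deposited scale. The difference between the families was not tested.

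**Figure D5:**
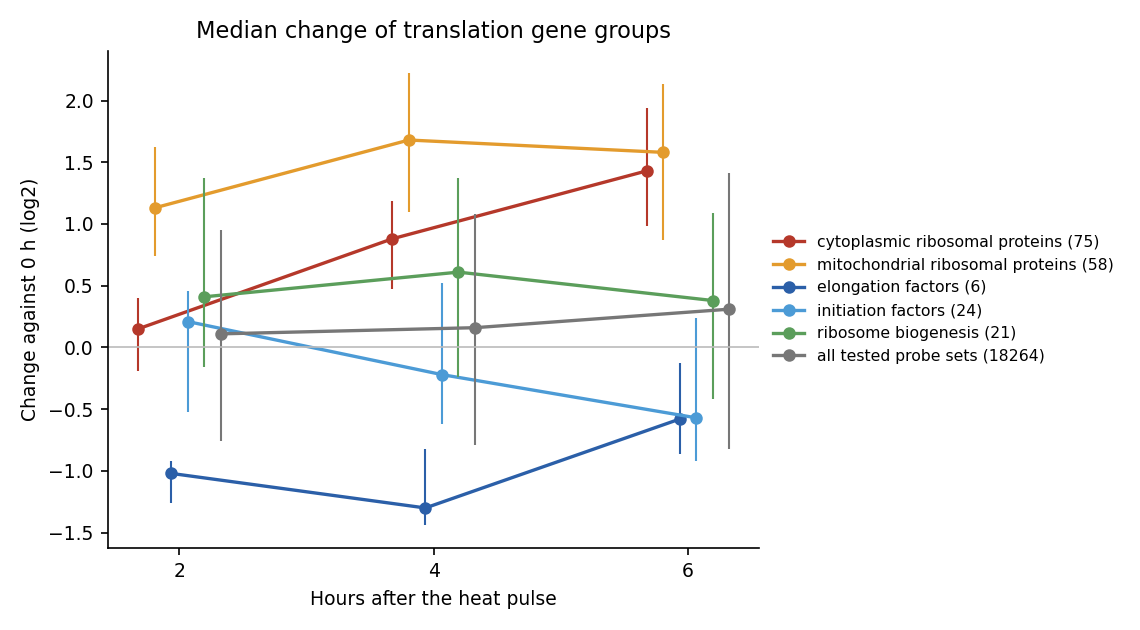
Median log2 change against 0 h at 2, 4 and 6 h for cytoplasmic ribosomal protein genes (75) and other groups of translation genes, each read at the brightest probe set of a gene, and for all 18264 tested probe sets; vertical lines span the middle of the members, from the lower to the upper quartile. The cytoplasmic ribosomal protein genes go through medians of 0.15, 0.88 and 1.43, and the 6 elongation factor genes through -1.02, -1.30 and -0.58.

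Elongation factors, which bring aminoacyl-tRNA to the ribosome and move it along the mRNA, were mostly lowered at 2 and 4 h. Of 6 tested genes, 4 were lowered at 2 h, 4 at 4 h and 3 at 6 h against 0 h, and 3 were raised at 6 h against 2 h. Over all tested probe sets, 9.55%, 11.9% and 15.6% were lowered at these times, and 14.3% were raised at 6 h against 2 h. *eef-1G* read 26568, 25129 and 25601 at 2 h, against 63955, 60251 and 69971 at 0 h, with no overlap (-1.33 on the log2 scale, limma adjusted p = 8.79e-07). *eef-2*, the translocase, read 14609, 8653 and 9280 at 0 h, 5082, 4185 and 5892 at 2 h, 3758, 4641 and 5917 at 4 h, and 9189, 16240 and 8761 at 6 h. The 6 h arrays overlapped the 0 h arrays, and the 4 h arrays overlapped the 2 h arrays. *eef-1B.2* fell by 1.72 on the log2 scale at 2 h, and *eef-1A.2* was lowered at 4 and 6 h, with changes of -1.43 and -1.37.

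Of 24 initiation factor genes, 4 were raised and 6 lowered at 6 h against 0 h, with a median of -0.57, against 21.7% raised and 15.6% lowered over all tested probe sets. The eIF5A genes *iff-1* and *iff-2* moved in opposite directions, as the *rpl-11* copies did. *iff-2* read 23866, 34104 and 17801 at 6 h, against 1650, 2023 and 1994 at 0 h (3.70 on the log2 scale, limma adjusted p = 4.02e-11), and *iff-1* read 18859, 22840 and 17022 at 6 h, against 62264, 58593 and 76242 at 0 h (-1.75, limma adjusted p = 1.79e-07). In *C. elegans*, *iff-1* is known for its role in the germ line. The cap-binding genes also differed: *ife-4* was raised by 2.79, whereas *ife-3* and *ife-1* changed by -1.73 and -1.45. *ife-5* was called raised by 3.26 from signals of 80.6, 18.1 and 18.6 at 0 h, of which only the first was above the filter level. *eif-3.E*, a subunit of the initiation factor eIF3, changed by -2.29. Of 21 genes of ribosome biogenesis, 6 were raised and 3 lowered at 6 h against 0 h, with a median of 0.38, set against the same shares over all tested probe sets. Among the lowered was *fib-1*, the nucleolar methyltransferase fibrillarin, with 21190, 16941 and 13079 at 6 h, against 37654, 29457 and 42210 at 0 h. *lpd-6* also fell, by 1.64 on the log2 scale. *rpoa-2*, a subunit of the polymerase that makes ribosomal RNA, was raised by 1.61, and *nol-6* by 2.76 from signals under the filter level at 0 h.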

How the data were processed

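RNA of pooled embryos was amplified with 20 PCR cycles and hybridised to Affymetrix *C. elegans* arrays. The values deposited by the authors are MAS5 signal intensities, 1 per probe set, on a linear scale and normalized per array by the authors; MAS5 settings were not given in the sources used here. Of 22625 probe sets, 77 controls were left out. Signals were turned to log2 as deposited. Probe sets with a signal over 69.7 (each array's 40th percentile, then the median of these 12 values) in at least 3 arrays were tested, which kept 18264 of 22548 (81%).

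A fit with limma 3.58.1 (R 4.3.3; trended, robust eBayes, all 12 arrays, no covariates) gave every change, standard error and Benjamini-Hochberg adjusted p, over all tested probe sets within a comparison. It was tested on simulated data. Tables and plots were made with Python 3.11.15, pandas 2.3.3, numpy 2.4.6 and matplotlib 3.10.9. Replicate arrays correlated at 0.836 to 0.885 in log2 signal over all 22548 probe sets that are not controls. Replicate letters were checked for pairing by correlation after removal of group means. Same-letter arrays lay at -0.0258 to 0.0332 and other arrays at -0.0246 to 0.0304. Samples were treated as unpaired, though this check cannot exclude a weak pairing.

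Gene symbols came from GEO's platform annotation, and 75 of 75 genes matched the RefSeq table by symbol. Members named with values were those with the up to 5 largest called rises or falls in a comparison, numbered or lettered copies, genes whose probe sets differed in call at 6 h, and the 3 brightest and 3 dimmest. *rpl-3* and the *rplp-* stalk genes were added after their values were seen. Related genes were read at their brightest probe set. The list of other ribosomal proteins matched 4 genes, of which *rpa-1* and *rpa-2* (changes of -3.53 and -3.35 at 6 h) encode replication protein A and are no ribosomal proteins, and *ubq-2* and *rack-1* are in the report. Members, lists and tests were chosen with earlier results of these data known.

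Alternatives were median scaling, quantile normalization, no filter, signals raised to the filter level, an ordinary eBayes fit, 1 probe set a gene, adjusted p alone, the replicate letter as a block, and each array left out.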

Additional observations from a re-analysis of the deposited data

How the results depend on the processing

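The rise of the family at 4 and 6 h kept its direction under every alternative run, and its size depended on the scaling. At 2 h against 0 h, 34 members were raised and 1 lowered after quantile normalization (median 0.60 on the log2 scale), 16 and 1 without 0 h and 4 h replicate C together, an alternative chosen after seeing the data, and 22 and 7 by adjusted p alone. With 1 array left out, 5 (without 0 h replicate A) to 16 (without 0 h replicate C) were raised and 1 to 2 lowered. The median at 4 h against 0 h was 1.25 without 0 h and 4 h replicate C together. Medians at 6 h against 0 h were 1.15 with median scaling and 1.05 with quantile normalization, and those at 6 h against 2 h were 0.96 and 0.40, the last with 35 members raised. Read at the brightest probe set of each of 75 genes, 41 were raised at 4 h and 59 at 6 h against 0 h. With the replicate letter as a block, 10, 68, 92 and 106 members were raised in the 4 comparisons, the same counts as without it. Same-letter arrays correlated at -0.0258 to 0.0332 after removal of group means, and 6 of 12 arrays correlated best with their own letter. Over 4080 values of named members, 7 that were called on the deposited scale turned sign, all at 6 h against 2 h after quantile normalization and none called there: *rpl-12* at 173407_s_at (-0.00), *rpl-41.2* (-0.08), *rps-10* at 173367_s_at (-0.00), *rps-15A* at both probe sets (-0.24 and -0.16), *rps-16* at 173329_s_at (-0.19) and *rps-3A* (-0.03). A further 89 lost and 56 gained a call. Changes that were not called also turned sign in places, among them *rpl-11.1* at 6 h against 2 h (0.09 without 2 h replicate C). The causes were not tested.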
